A study of Mus musculus with 3 samples.

Results

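The transcripts described here are 10 messenger RNAs of the mouse mitochondrial genome: mt-Nd1, mt-Nd2, mt-Nd3, mt-Nd4, mt-Nd5, mt-Cytb, mt-Co1, mt-Co2, mt-Co3 and mt-Atp6. They were chosen by symbol, as 10 of the 32285 genes in the deposited single-cell count tables of mouse testis and 10 of the 13 protein genes of that genome. The remaining mt-Atp8, mt-Nd4l and mt-Nd6 are given only where they bear on a value. UMIs of the 10 transcripts made up 98.4%, 99.1% and 98.5% of the UMIs of the 13 genes in the 3 libraries.

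Cells came from the testes of adult C57BL/6N mice and were counted with the 10x Genomics 3′ assay, in which each unique molecular identifier (UMI) stands for 1 captured RNA molecule. The wildtype group was 2 libraries of 1 mouse each, called wildtype replicates 1 and 2. The conditional Tex10 knockout was a single library of cells pooled from 2 mice, so no difference between the groups could be tested. The labels do not give the Cre driver or the deleted exons, and a 3′ count of Tex10 therefore does not check the genotype. In spermatogonia Tex10 was at 144 and 125 CPM (counts scaled to 1000000 UMIs) in wildtype cells and at 133 CPM in knockout cells, and in round spermatids at 34.2, 32.1 and 22.4 CPM.

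Mitochondria keep a small circular genome whose messenger RNAs encode core subunits of the respiratory chain and of ATP synthase, and all other subunits are encoded in the nucleus. The mitochondrial DNA is transcribed into long precursors that are cut at transfer RNAs and then given short poly(A) tails. In the testis, spermatogonia and early spermatocytes sit outside the blood-testis barrier, later germ cells depend on lactate that Sertoli cells supply, and spermatids shed much of their cytoplasm before the remaining mitochondria are arranged around the sperm midpiece. In single-cell work the mitochondrial share of UMIs is also a common filter for damaged cells, and a limit of 10% is often used. Here barcodes over 10% were kept in and are also shown apart.

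The assay reads next to the poly(A) tail, so the annotated 3′ ends of these genes are given here. An annotated end need not be the end of the messenger. On the same strand 69 bases lie between mt-Co1 and the next gene, and 579 between mt-Nd5 and mt-Cytb. Where the tails of mt-Co1 and mt-Nd5 start was not determined. By the GENCODE M21 annotation of GRCm38, all 10 lie on the plus strand of chromosome M. mt-Nd1 spans chrM:2751-3707, mt-Nd2 chrM:3914-4951, mt-Co1 chrM:5328-6872, mt-Co2 chrM:7013-7696 and mt-Atp6 chrM:7927-8607. mt-Co3 spans chrM:8607-9390, mt-Nd3 chrM:9459-9806, mt-Nd4 chrM:10167-11544, mt-Nd5 chrM:11742-13565 and mt-Cytb chrM:14145-15288. These are single-exon genes with no introns. The last 30 annotated bases of 6 of them are printed 5′ to 3′, with the stop codon, or the part of it that the gene holds, in capitals.
mt-Co3: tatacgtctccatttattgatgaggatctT
mt-Nd4: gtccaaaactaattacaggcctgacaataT
mt-Cytb: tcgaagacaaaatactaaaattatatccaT
mt-Co1: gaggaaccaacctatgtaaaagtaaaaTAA
mt-Atp6: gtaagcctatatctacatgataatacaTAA
mt-Nd1: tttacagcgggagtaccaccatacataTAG
The first 3 end in a single T, and their annotated lengths of 784, 1378 and 1144 bases leave a remainder of 1 after division by 3. For such messengers the poly(A) tail is known to complete the stop codon, so the tail starts inside the coding sequence and a 3′ read falls on it. The annotated sequences of the other 7 end in TAA or TAG. mt-Nd1 and mt-Nd2 overlap the next transfer RNA gene of the same strand, mt-Ti and mt-Tw, by 2 bases each. With cuts at transfer RNAs, their annotated TAG need not be whole in the messenger, and where their tails start was not determined. mt-Atp6 shares 43 bases with mt-Atp8 and 1 base with mt-Co3, and mt-Nd4 shares 7 bases with mt-Nd4l; each of the pairs mt-Atp8 with mt-Atp6 and mt-Nd4l with mt-Nd4 is known to be carried by 1 messenger. No 31-base word of the last 500 bases of a member, or of the whole of mt-Nd3, occurred in an annotated transcript of another gene of the tables. mt-Nd5 overlaps mt-Nd6 of the opposite strand by 14 bases.

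The deposited tables held 9967, 10153 and 12918 barcodes (wildtype replicate 1, wildtype replicate 2, knockout) with 93418341, 96001773 and 147783171 UMIs. After a minimum of 1000 UMIs and 500 genes and the removal of likely doublets, 8433, 8565 and 11941 barcodes remained. Pairs of libraries shared 27 to 30 barcodes. Cells were clustered without the mitochondrial genes and without the nuclear genes of oxidative phosphorylation, and clusters were named by marker genes, so each class name stands for cells that are spermatogonia-like, Sertoli-like and so on. Clusters with a median UMI total under 3 times the lowest deposited total were set apart as low-UMI clusters, which held 4653, 3497 and 7440 barcodes. Markers of elongating spermatids were found in spermatogonia at 2.07% to 2.24% of their level in elongating spermatids, and Malat1, a nuclear RNA, was higher in the knockout than in both wildtype libraries in 9 of 10 classes.

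The 10 transcripts took a share of UMIs that fell steeply along the germ line. In spermatogonia they were 4.88% and 5.47% of UMIs in wildtype replicates 1 and 2 and 4.59% in the knockout library. In early spermatocytes, marked by meiotic prophase genes, the shares were 4.95%, 5.57% and 4.30%. Both early classes lay in the same range, and the knockout library was the lowest in each. In late spermatocytes the shares were 1.69%, 2.04% and 1.71%. In round spermatids they were 0.373%, 0.370% and 0.242%, and in elongating spermatids 0.124%, 0.148% and 0.133%. From spermatogonia to elongating spermatids the share was thus 34.5- to 39.3-fold lower, depending on the library. The wildtype means were 5.17 ± 0.416% (SD, n = 2), 5.26 ± 0.438%, 1.87 ± 0.244%, 0.372 ± 0.00260% and 0.136 ± 0.0172% in the order of the stages. By summed UMIs, in each of the last 3 stages every library lay below all libraries of the stage before. As a mean over single barcodes the wildtype share was instead 5.94% in early and 6.39% in late spermatocytes, so the direction of that step turned. A share of UMIs does not tell fewer mitochondrial RNA molecules per cell from more molecules of other genes. The exact 95% binomial interval of the knockout share in round spermatids was 0.240% to 0.244%, and it covers counting error only. The part of free RNA in the share of elongating spermatids was not tested. With a Leiden resolution of 2 the round spermatid share was 0.227%.

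With all kept barcodes, Sertoli and Leydig cells took a larger share than every named germ class in each library, and myoid cells did not. Sertoli cells, the nurse cells of the seminiferous epithelium, had 9.97% and 11.1% in wildtype and 8.58% in knockout cells, the highest level of a named class. Leydig cells, which make testosterone, had 6.74%, 6.88% and 6.06%, from only 27, 25 and 59 barcodes. A low-UMI cluster whose best marker type was also Leydig held 2.73%, 1.91% and 1.91%, from 4, 7 and 119 barcodes. Peritubular myoid cells, the contractile cells around the tubules, had 4.30%, 4.68% and 3.67%. With all kept barcodes the order Sertoli, Leydig and then myoid cells was the same in each library. Up to 10% mitochondrial UMIs Leydig cells had 6.20%, 6.65% and 5.50%, and in wildtype replicate 2 they exceeded Sertoli cells, at 6.01%. Myoid cells lay below spermatogonia and early spermatocytes in each library, though the ranges over the libraries overlapped. A low-UMI cluster whose best marker type was macrophage held 2.50%, 3.73% and 2.21%, from 16, 22 and 53 barcodes. An unnamed cluster led by Dcn and Gsn held 1.99%, 2.59% and 2.49%. The knockout library was below both wildtype libraries in each of the 3 named somatic classes. Without barcodes over 10% mitochondrial UMIs the knockout share in Sertoli cells, 6.71%, lay between 7.27% and 6.01%, and its log2 ratio to the wildtype mean went from -0.30 to 0.02.

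**Figure D1:**
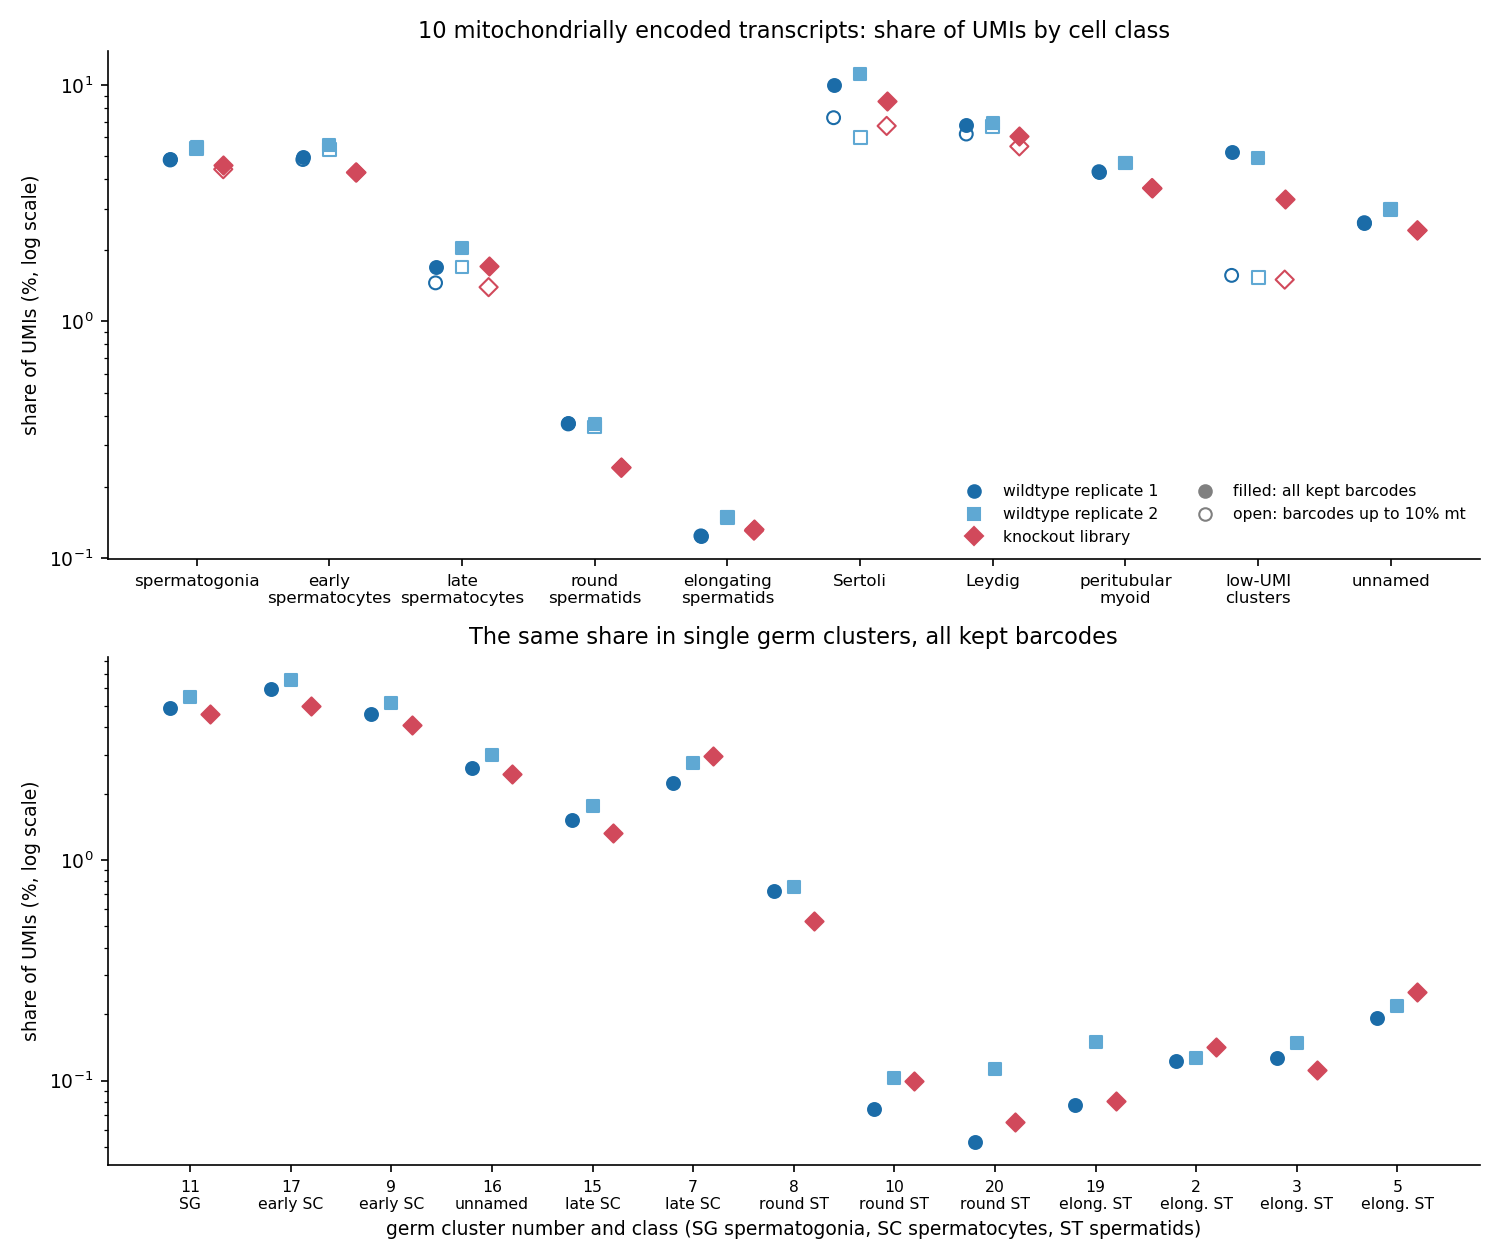
The upper panel plots the share of UMIs of the 10 transcripts (percent, log axis) per cell class, 1 point per library, filled for all kept barcodes and open for barcodes up to 10% mitochondrial UMIs; the lower panel plots it per germ cluster, where the order within a class is a choice of display. The share drops from about 5% in spermatogonia and early spermatocytes to 0.124% to 0.148% in elongating spermatids, while Sertoli cells reach 8.58% to 11.1%.

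Single clusters resolved the fall further. The early spermatocyte cluster led by Stra8 and Prdm9, genes of meiotic entry and of recombination sites, held 5.98%, 6.56% and 4.98%. The cluster led by Rad51ap2 and Meiob, which act in recombination, held 4.62%, 5.14% and 4.11%. A cluster left unnamed, led among others by Piwil1, Adad2 and Ccnb1ip1, held 2.62%, 2.99% and 2.44%, between the early and the late classes. The deepest late spermatocyte cluster, led by Pou5f2 among others, held 1.52%, 1.76% and 1.32%. In each of these 4 clusters wildtype replicate 2 was the highest and the knockout library the lowest. The other late spermatocyte cluster, led by Ccna1, Plk1 and Aurka, held 2.24%, 2.76% and 2.96%, with the knockout library the highest.

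Round spermatids were not uniform. The cluster led by Ssxb1 and Ssxb2 held 0.726%, 0.754% and 0.530%. The clusters led by genes such as Tssk5 and by Dyrk4 and Tmco5b held 0.0741%, 0.102% and 0.1%, and 0.0528%, 0.113% and 0.0652%. The first cluster carried 90.5%, 83.1% and 76.8% of the class's UMIs of the 10 transcripts with 46.6%, 40.7% and 35.1% of its UMIs in all. Elongating spermatids did not continue downward: the cluster led by Faiml and Actrt3 held 0.0778%, 0.149% and 0.0810%. The clusters led by Tnp2 and by Klk1b3, among others, held 0.123%, 0.127% and 0.142%, and 0.126%, 0.148% and 0.111%. The cluster led by Spem2 and Tssk6 held 0.192%, 0.218% and 0.252%. In all libraries the Spem2 cluster exceeded the Tssk5 and Dyrk4 round clusters. Its barcodes under 5000 UMIs held 0.304%, 0.313% and 0.354%, and those from 5000 UMIs 0.168%, 0.179% and 0.247%. The part of depth in its share was not tested. Which clusters are named here was chosen after their values were seen, so these values carry no test.

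The level of each transcript was followed from stage to stage with edgeR's quasi-likelihood test on UMIs summed per library and class, with library as a block and without scaling factors, so that a change is one of the share of UMIs. P-values were adjusted by the Benjamini-Hochberg method over 18939 genes. Between spermatogonia and early spermatocytes the transcripts barely moved: 3 of 10 rose (background 25.4% of all genes), 2 of 10 fell (background 30.7%) and 5 did not pass. mt-Cytb, the mitochondrial subunit of complex III, was at 3793 and 4332 CPM in wildtype and 3751 CPM in knockout spermatogonia, against 4884, 5620 and 4239 CPM in early spermatocytes. It was higher in early spermatocytes in each library, by 0.31 ± 0.067 on the log2 scale (SE, edgeR adjusted p = 0.00028). mt-Nd3 and mt-Nd2, subunits of complex I, rose by 0.35 and 0.29. mt-Co1, the catalytic subunit of cytochrome c oxidase, fell by 0.25 and mt-Atp6, a subunit of the proton channel of ATP synthase, fell by 0.18. With TMM scaling factors edgeR had 6 rising and 0 falling (0 also at an unadjusted p under 0.05), and mt-Atp6 turned to 0.04; DESeq2 had 1 falling. Without the knockout library 5 rose, and without either wildtype replicate 1 fell.

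Between early and late spermatocytes all 10 fell, against 50.9% of all genes. They parted by complex. The complex I subunits mt-Nd1, mt-Nd3, mt-Nd2, mt-Nd4 and mt-Nd5 fell by 2.42, 2.25, 2.13, 1.98 and 1.75 on the log2 scale, and mt-Cytb fell by 1.94. mt-Co1, mt-Atp6, mt-Co2 and mt-Co3 fell by 1.35, 1.34, 1.22 and 1.19, and mt-Co2 and mt-Co3 are, as mt-Co1, core subunits of cytochrome c oxidase. The SE of these changes was 0.069 to 0.089 and the largest edgeR adjusted p was 2.4e-13. The median of all genes was -0.77, and all 10 lay below it.

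mt-Nd1 shows the larger falls. It was at 2054 and 2406 CPM in wildtype and 1844 CPM in knockout early spermatocytes, and at 340, 484 and 363 CPM in late spermatocytes. mt-Co2 shows the smaller ones, with 10788, 11955 and 9037 CPM before and 4287, 5044 and 4241 CPM after. For both, no late value came near an early one. The 5 complex I transcripts accordingly made up 16.1%, 14.7% and 17.3% of the sum of the 10 in early and 9.49%, 9.49% and 10.7% in late spermatocytes, with no overlap. The 3 cytochrome c oxidase transcripts went from 50.9%, 51.8% and 50.3% to 57.6%, 59.4% and 58.0%. That difference between complexes was described and not tested.

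Between late spermatocytes and round spermatids all 10 fell again (background 44% of all genes), by 2.20 for mt-Co1 to 3.04 for mt-Nd3 on the log2 scale, with a largest edgeR adjusted p of 3.4e-19. The median of all genes was -0.25. mt-Cytb was at 1188, 1412 and 1236 CPM in late and 219, 225 and 162 CPM in round spermatids. mt-Nd3 was at 132, 166 and 128 CPM in late and 20.5, 19.6 and 12.3 CPM in round spermatids. In both, the knockout library was lowest among round spermatids.

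Between round and elongating spermatids all 10 fell on the share scale (background 65.6% of all genes), but with TMM factors 7 rose and 0 fell in edgeR (0 also at an unadjusted p under 0.05), and in DESeq2 with its size factors all 10 rose. On the share scale the median of all genes was itself -1.52, and with TMM factors it was -0.05. Relative to that median the members were higher: mt-Nd2 fell by 0.41 and mt-Nd1 by 0.61, the smallest falls, against 1.11 and 0.90 higher with TMM factors. mt-Nd4, with 1.5, fell the most on the share scale, and was at 0.01 with TMM factors. mt-Nd2 was at 84.0, 83.6 and 86.0 CPM in round and 53.9, 59.8 and 78.7 CPM in elongating spermatids. mt-Nd4 was at 133, 127 and 101 CPM and then at 40.8, 40.5 and 45.1 CPM. The direction of this last step hence rests on the scale.

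**Figure D2:**
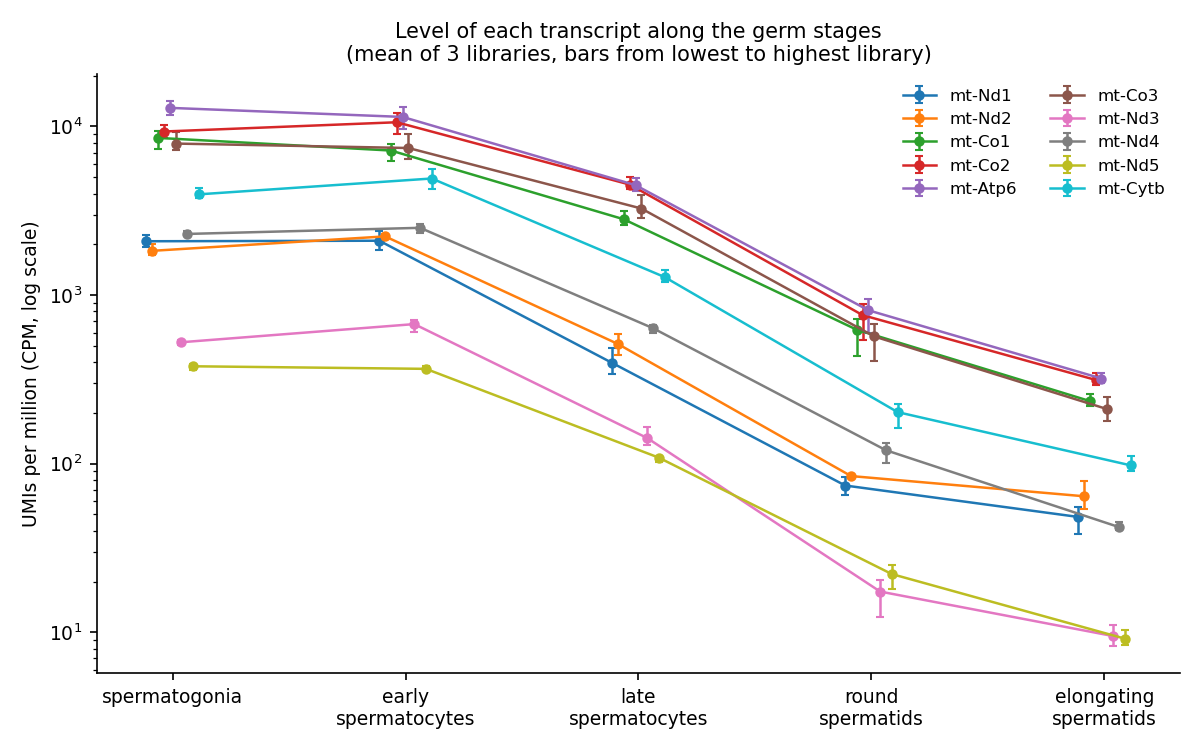
Level of each of the 10 transcripts (CPM, log axis) in the 5 germ classes; points are the mean of the 3 libraries and bars run from the lowest to the highest library. The lines run nearly level to early spermatocytes and then fall together, with mt-Nd1, mt-Nd2 and mt-Nd3 dropping further than mt-Co2 and mt-Atp6 at late spermatocytes.

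The nuclear partners of these transcripts moved in both directions into late spermatocytes. Of 85 nuclear genes of complexes I to V tested, 34 rose and 40 fell between early and late spermatocytes, with a median of -0.08; of all genes 26.5% rose and 50.9% fell, with a median of -0.77. The median was 0.06 for the 37 genes of complex I, with 18 up and 14 down, -0.63 for 4 of complex II, of which 3 fell, 0.18 for 9 of complex III, -0.27 for 17 of complex IV and -0.34 for 18 of complex V. With TMM factors 45 rose and 26 fell. Among the nuclear genes that rose were Atpif1, the inhibitor of ATP synthase, by 2.20, Cox8c, a testis form of a cytochrome c oxidase subunit, by 1.94, Uqcrq of complex III by 1.58 and Ndufa12 of complex I by 1.14. Among those that fell were Ndufb11 by 5.52 and Cox7b by 4.11, both X-linked, Atp5g2 by 4.53 and Cyc1 by 2.41. Whether the mitochondrial and nuclear genes differ was not tested beyond these counts.

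Between spermatogonia and early spermatocytes 36 of the 85 nuclear genes rose and 38 fell, with a median of -0.07; Cox6b2, a testis subunit of cytochrome c oxidase, rose by 2.71 and Cox7b fell by 3.45. From late spermatocytes to round spermatids 12 rose and 67 fell, with a median of -0.71, and Ndufb11 and Cox7b were 3.01 and 2.63 higher. From round to elongating spermatids 3 rose and 80 fell, with a median of -2.06, below the median of all genes; with TMM factors 23 rose and 54 fell. At that step the nuclear genes stood lower than the mitochondrial transcripts, the reverse of the order at the step into late spermatocytes.

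Genes that act on mitochondrial DNA were also counted. Of 30 genes for its transcription and RNA handling, such as the polymerase Polrmt, 7 rose and 17 fell between early and late spermatocytes, with a median of -0.59, and 5 rose and 21 fell into round spermatids, with a median of -1.12. Of 9 genes for its replication, such as the polymerase Polg, 7 fell between early and late spermatocytes, with a median of -2.79. Of all genes 26.5% rose and 50.9% fell at the first of these steps, with a median of -0.77, and 36.5% and 44% at the step into round spermatids, with a median of -0.25. All edgeR counts here use an adjusted p under 0.05. The lists were made with earlier results of these data known and give no independent support.

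**Figure D3:**
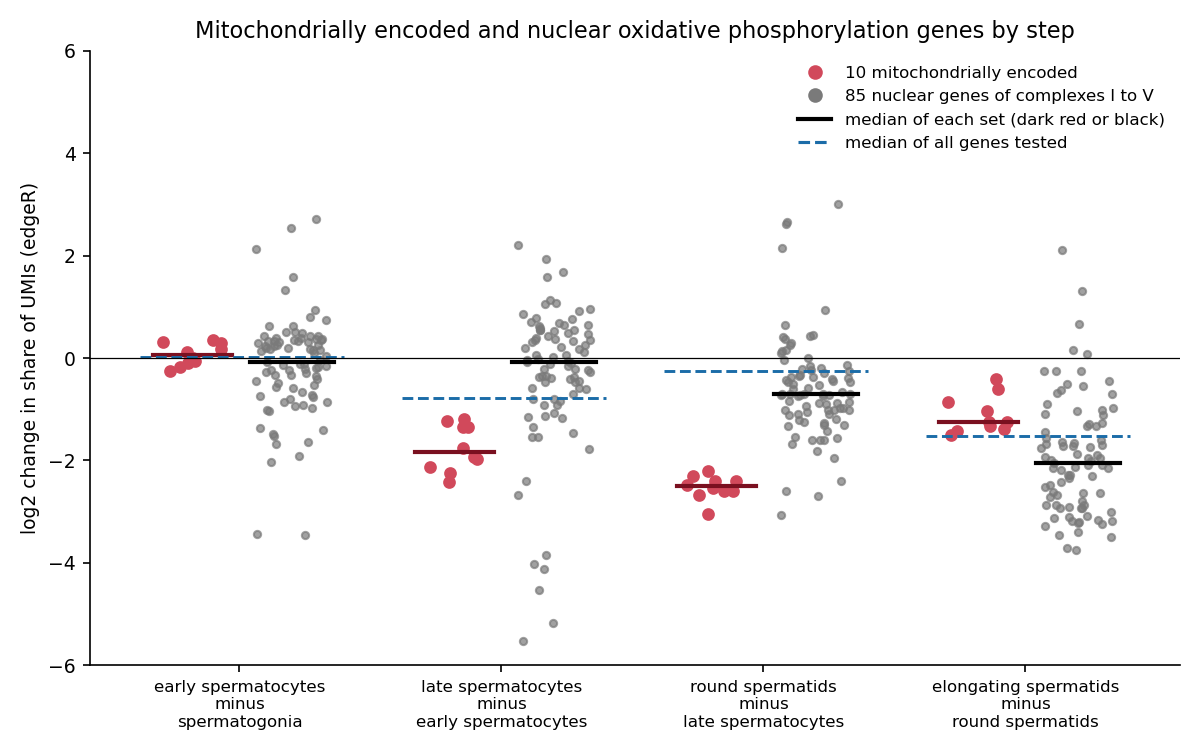
Log2 change in share of UMIs at each step along the germ line for the 10 mitochondrial transcripts (red) and 85 nuclear genes of complexes I to V (grey), with the median of each set as a bar and the median of all genes tested as a dashed line; sideways scatter is for display. At the step into late spermatocytes the mitochondrial transcripts lie at -1.19 to -2.42 and the nuclear median at -0.08, and at the last step the nuclear median of -2.06 is the lower.

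The 10 transcripts moved closely together. Over the 15 profiles of 3 libraries and 5 germ classes, the log2 level of each correlated with that of the other 9 summed at r = 0.980 (mt-Nd2) to 0.999 (mt-Atp6). The profiles share libraries and the steep stage gradient, so this is a description. Of 10459 nuclear genes compared in the same way, those closest to the sum were Zwint, Pfdn4, U2surp, Sumo2 and Prpf8, each at r = 0.997. Averaged over libraries, mt-Atp6 held 17.8% to 25.9% of the sum and mt-Co2 18.5% to 24.9% across the 10 classes, and mt-Nd3 and mt-Nd5 never more than 1.43%.

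Barcodes over 10% mitochondrial UMIs were 939, 891 and 858 in the 3 libraries, or 11.1%, 10.4% and 7.19% of those kept. They held 3.06%, 3.19% and 2.79% of all UMIs but 29.9%, 29.6% and 27.8% of those of the 10 transcripts. Just around the limit the numbers changed smoothly, with 121, 138 and 165 barcodes at 9% to 10% and 99, 121 and 129 at 10% to 11%. The low-UMI clusters held 68.8%, 58.2% and 65.0% of these barcodes and late spermatocytes 24.7%, 28.5% and 26.1%. Within the low-UMI clusters 13.9%, 14.8% and 7.5% of barcodes were over the limit, in the knockout library near the 7.19% of all kept. Within late spermatocytes 32.7%, 32.8% and 25.6% were over it.

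Sertoli cells were the class that the limit touched most. Over 10% stood 43 of 71 barcodes (60.6%, exact 95% interval 48.3% to 72.0%) in wildtype replicate 1, 70 of 89 (78.7%, 68.7% to 86.6%) in wildtype replicate 2 and 48 of 110 (43.6%, 34.2% to 53.4%) in the knockout library. Within this class these were not shallow barcodes: their median was 17817, 15026 and 22234 UMIs, near the 18351, 18112 and 26138 UMIs of Sertoli cells up to the limit. Leaving them out lowered the class share of the 10 transcripts to 7.27%, 6.01% and 6.71%, and changed the order of the libraries from wildtype replicate 2 highest and knockout lowest to wildtype replicate 1 highest and replicate 2 lowest. mt-Co2 was the largest of the 10 in these cells, with 25051 and 27328 CPM in wildtype and 19153 CPM in knockout cells. A low-UMI cluster led by Defb36 and Cst9, whose best marker type was also Sertoli, held 12.6%, 14.4% and 8.97%. It had 267, 267 and 286 barcodes over 10%, with a median of 2191, 2094 and 3532.5 UMIs. Shallow clusters were set apart by rule, so the depth of the named Sertoli class does not describe all Sertoli-type barcodes over the limit.

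Late spermatocytes over the limit were of another kind. All such barcodes but 1, in wildtype replicate 1, lay in the cluster led by genes of division such as Ccna1, Plk1 and Aurka, where they were 231 of 483, 254 of 556 and 224 of 642. Their median was 1725, 1642 and 2734 UMIs, against 21598, 4143 and 3217 for the others of that cluster. Barcodes of that cluster with 5000 UMIs or more held 1.11%, 1.33% and 1.70%, and those below it 11.7%, 10.7% and 9.04%. High mitochondrial share thus went with low depth in this cluster. In the over-limit late spermatocytes mt-Nd3 was 0.49%, 0.56% and 0.48% of the sum, against 0.83%, 0.87% and 0.82% in those up to the limit, and mt-Cytb 5.10%, 5.14% and 5.96% against 7.37%, 7.34% and 7.53%. Without barcodes over 10% the class share was 1.46%, 1.70% and 1.4%, and all 10 transcripts still fell from early to late spermatocytes in edgeR.

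The other germ stages hardly met the limit. In spermatogonia 2 of 216, 6 of 312 and 10 of 253 barcodes were over it, and in early spermatocytes 10 of 453, 30 of 554 and 3 of 539. Among round spermatids 3 of 559, 9 of 988 and 2 of 612 were over, and among elongating spermatids 0 of 1449, 0 of 1913 and 1 of 1729. No myoid cell of 92, 93 and 88 passed it.

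**Figure D4:**
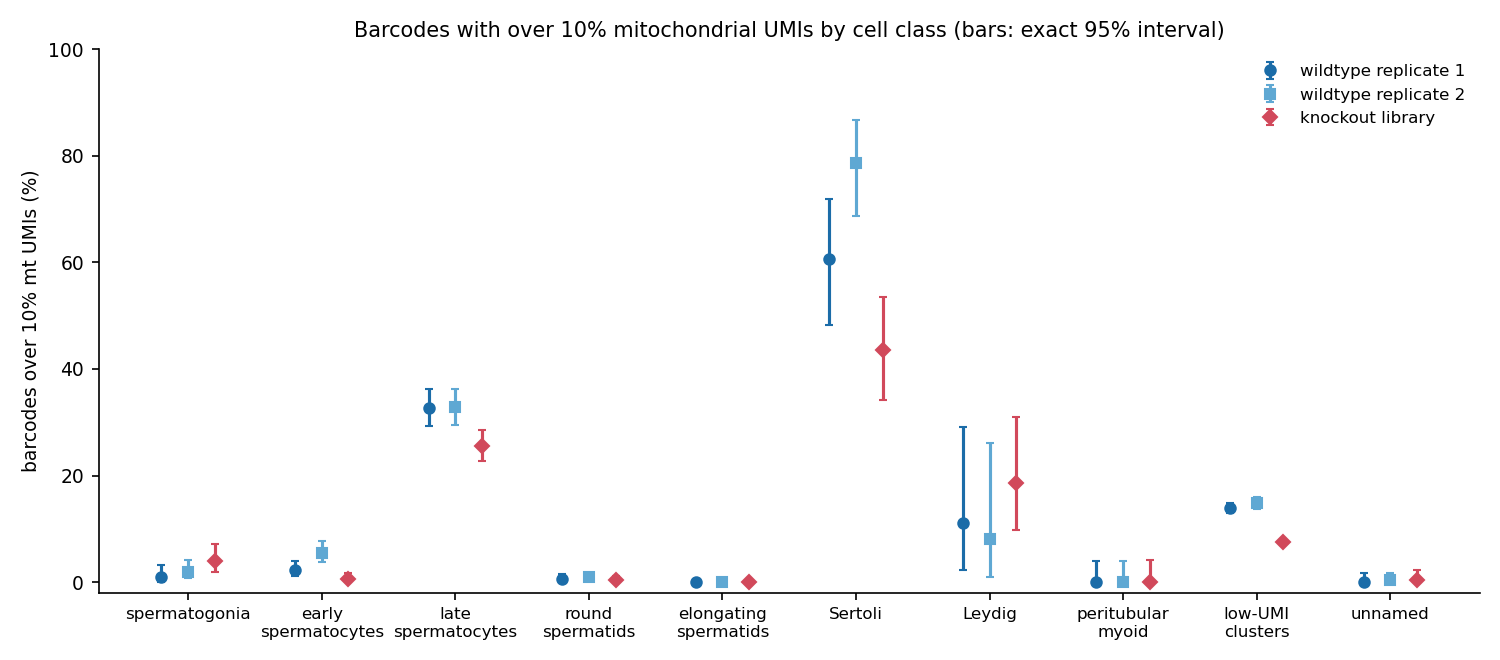
Percent of barcodes with over 10% mitochondrial UMIs per cell class and library, with exact 95% binomial intervals. Sertoli cells reach 43.6% to 78.7% and late spermatocytes 25.6% to 32.8%, while spermatids stay under 1%.

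Between genotypes the sum of the 10 transcripts was lowest in the knockout library in 8 of 10 classes and between the wildtype libraries in late spermatocytes and elongating spermatids. Without barcodes over 10% it was again lowest in 8 of 10, but late spermatocytes were then among the 8 and Sertoli cells were not, and in the low-UMI clusters the log2 ratio to the wildtype mean went from -0.63 to -0.05. Wildtype replicate 2 was above replicate 1 in 8 of 10 classes. Depth differed too: median UMIs per barcode were 11187, 8358 and 14094 in spermatogonia (wildtype replicates 1 and 2, knockout). They were 6663, 5672 and 9097 in early spermatocytes and 17953, 15886 and 23910 in Sertoli cells. There, and in late spermatocytes, Leydig and myoid cells and low-UMI clusters, the libraries' order by share reversed that by depth. In round and elongating spermatids and the unnamed class it did not. The part of depth was not tested. The largest gap in a named class was in round spermatids, where the knockout share of 0.242% was 65.2% of the wildtype mean, a log2 ratio of -0.62 against -0.01 between the wildtype libraries. The Ssxb1 cluster had a log2 ratio of -0.48, the Tssk5 cluster 0.18 and the Dyrk4 cluster -0.35, while wildtype replicate 2 over replicate 1 gave 0.06, 0.47 and 1.10. In the Tssk5 and Dyrk4 clusters the knockout library lay between the wildtype libraries. The knockout library also had the smaller part of its round spermatid UMIs in the Ssxb1 cluster, and with each of the 3 clusters weighted equally the class ratio was -0.39. With low-UMI clusters named too it was -0.35. In the same class Malat1 was at 559 and 591 CPM in wildtype and 809 CPM in knockout. Markers of elongating spermatids, all 16 detected, summed to 22040 and 19320 CPM in wildtype and 25070 CPM in knockout round spermatids. The part of both in the result was not tested.

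Single transcripts in round spermatids were mostly lower in the knockout library. mt-Co1 was at 723 and 713 CPM in wildtype and 434 CPM in knockout cells. mt-Atp6 was at 946, 897 and 594 CPM, and mt-Co3 at 627, 671 and 406 CPM. In these 3 the knockout value lay outside the wildtype pair by far more than the pair differed. mt-Nd2 was the exception, with 84.0, 83.6 and 86.0 CPM. Below both wildtype libraries were 9 of 10 members, against 44% of all genes of that class.

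By the fixed rule of size (a 2-fold difference from each wildtype library in the same direction, 2 times or more what separates the wildtype pair on the log2 scale, and 20 CPM in a library), none of the 10 passed in any of the 7 classes compared. The rule was met by 0.353% of all genes in spermatogonia, 0.243% and 0.805% in early and late spermatocytes, 1.24% and 1.36% in round and elongating spermatids, 0.53% in Sertoli cells and 2.46% in myoid cells. In elongating spermatids 8 members reached the level needed. With a 1.5-fold rule 5 of 10 were lower in round spermatids, against 1.61% of all genes. Of the nuclear genes of complexes I to V, Ndufc2 alone passed, being lower in knockout round spermatids, and of the other mitochondrial genes mt-Nd6 alone, lower in knockout myoid cells. There mt-Nd6 was at a low level, with 50.6 and 45.7 CPM in wildtype and 20.8 CPM in knockout cells, from 92, 93 and 88 barcodes.

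In the other classes the members below both wildtype libraries were 6 of 10 in spermatogonia (36.5% of all genes), 9 of 10 and 3 of 10 in early and late spermatocytes (29.8% and 35.8%), 1 of 8 in elongating spermatids (24.7%), 6 of 10 in Sertoli cells (34.9%) and 8 of 10 in myoid cells (37.7%). In early spermatocytes mt-Co2 was at 10788, 11955 and 9037 CPM and mt-Atp6 at 11460, 13016 and 9704 CPM, a log2 ratio to the wildtype mean of -0.33 for each, with 0.15 and 0.18 between the wildtype libraries. In Sertoli cells mt-Co1 was at 23308, 25156 and 18407 CPM, while mt-Nd1 was at 4522, 5470 and 5798 CPM. The 16 markers of elongating spermatids, all detected, summed to 5383, 10176 and 15847 CPM in these Sertoli cells, highest in the knockout library, and their part in the result was not tested. In elongating spermatids mt-Nd1 and mt-Nd2 were the highest in the knockout library, with 38.2, 51.5 and 55.4 CPM and with 53.9, 59.8 and 78.7 CPM.

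The makeup of the sum differed by library, for some transcripts in the same direction in nearly every class. The share of mt-Nd2 in the sum was highest in the knockout library in 10 of 10 classes, with log2 ratios to the wildtype mean of 0.28 to 0.69 and a median of 0.46. mt-Nd5 was also highest there in 10 of 10 classes (median 0.26) and mt-Nd4 in 9 of 10 (median 0.16). mt-Nd1 was highest there in 7 of 10 classes. The shares of mt-Co1 and mt-Nd3 were lowest in the knockout library in 7 of 10 classes each and that of mt-Co2 in 6. For mt-Atp6, mt-Co3 and mt-Cytb the knockout library was between the wildtype libraries in 5, 7 and 4 of 10 classes. The share of mt-Co3 was higher in wildtype replicate 2 than in replicate 1 in 10 of 10 classes, with a median log2 ratio of 0.18. mt-Nd5 and mt-Nd4 were lower in replicate 2 than in replicate 1 in 10 of 10 classes. Outside the 10, mt-Atp8 in CPM was lower in wildtype replicate 2 than in replicate 1 in 10 of 10 classes, with a median log2 ratio of -0.94, and mt-Nd4l likewise with -0.51. Offsets of this kind separate single libraries, wildtype ones included, and genotype and library cannot be told apart for them.

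**Figure D5:**
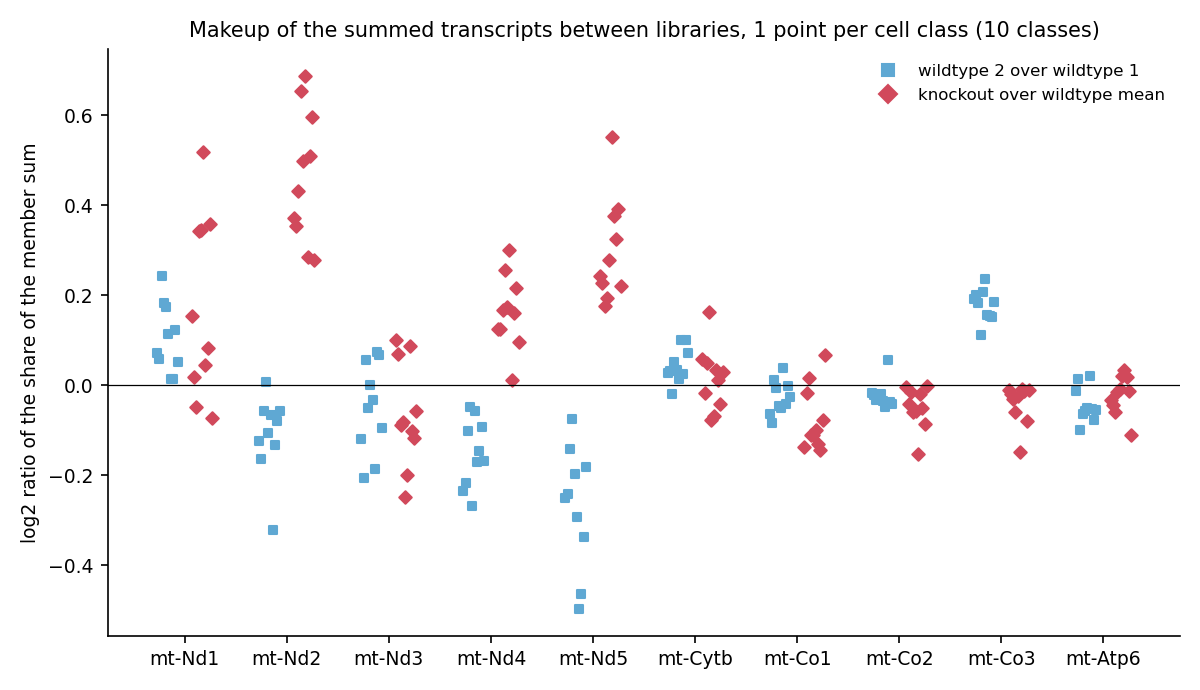
Log2 ratio of each transcript's share of the sum of the 10, wildtype replicate 2 over replicate 1 (blue) and knockout over the wildtype mean (red), with 1 point for each of 10 cell classes. mt-Nd2 lies at 0.28 to 0.69 in the knockout comparison in every class, and mt-Co3 lies above 0 between the wildtype libraries in every class.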

How the data were processed

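The deposited tables give unnormalized UMI counts, by gene and barcode, of 3 testis libraries. Per the file headers they were made with Cell Ranger 4.0.0. The submitters' processing notes also list Seurat 4.0.5 and mm10. The annotation and the use of strand in counting are not given in the sources used here.

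Barcodes needed 1000 UMIs and 500 genes. Scrublet's automatic threshold marked 0, 1 and 0 barcodes, so likely doublets were taken as barcodes with scores above the limit of the top 8% in each library, which left out 692, 707 and 976. Cells up to 10% mitochondrial UMIs were clustered in scanpy 1.11.5 (2000 variable genes, 30 components, 15 neighbours, Leiden at resolution 1), with 141 mitochondrial and nuclear mitochondrial-function genes held out of clustering. Barcodes over 10% were placed by their 15 nearest neighbours. Clusters were named from fixed markers of 12 cell types, a name needing 3 detected markers, and other names than the study's may result. Gene positions and 3′ ends came from GENCODE M21 (GRCm38).

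Stages were compared with edgeR 4.0.16 (quasi-likelihood, library as a block, no scaling factors, 8 residual degrees of freedom), with DESeq2 1.42.0 as an alternative. The block pairs the classes that came from the same library. The test was tried on simulated data for the first step, where 98% of genes with a log2 change of 1 and 78% of those with -1 were recovered. That simulation held each unchanged gene at the same mean in all classes, with the same spread for all genes and no library effect. It therefore does not cover the wide shifts between stages in the real data, or the later steps. The knockout is 1 library of 2 pooled mice, so its differences were described by the size rule on CPM + 1 with no test. Intervals are exact 95% binomial and cover counting error only. Named nuclear genes were, per complex and step, those with the largest rise and fall past an adjusted p of 0.05, of which a part is printed; genes past the size rule; and the 5 closest profiles. The members and lists were chosen with earlier results of these data known.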

Additional observations from a re-analysis of the deposited data

Results flagged for a closer look

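In 3 of the 10 transcripts the knockout library lay above both wildtype libraries in at least 1 of the classes compared where it reached 20 CPM in a library, and below both in at least 1 other, and these differences between classes were not tested. The log2 ratios that follow are the largest of each direction, to the nearer wildtype library, on CPM + 1. mt-Nd1 was 0.10 higher in elongating spermatids and -0.19 in round spermatids. mt-Nd4 was 0.14 higher in elongating and -0.33 in round spermatids. mt-Nd5 was 0.19 higher in Sertoli cells and -0.36 in round spermatids. Barcodes under the minimum of UMIs or genes, which no comparison uses, also held the 10 transcripts. Their share was 3.34% over 842 barcodes in wildtype replicate 1, 5.70% over 881 in wildtype replicate 2, and 56.4% in the 1 such barcode of the knockout library.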

How the results depend on the processing

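The falls into late and into round spermatids held for all 10 transcripts under each alternative fit: TMM factors, DESeq2, no count filter, no block, barcodes over 10% left out, doublets kept, and each library left out in turn. Under TMM factors and DESeq2, the step from round to elongating spermatids turned from 10 falling and 0 rising to 0 falling and 7 (TMM) or 10 (DESeq2) rising. The log2 changes with TMM factors and DESeq2 were 0.90 and 1.2 for mt-Nd1, 1.11 and 1.41 for mt-Nd2, 0.14 and 0.44 for mt-Co1, 0.26 and 0.56 for mt-Co2, and 0.19 and 0.50 for mt-Atp6. They were 0.10 and 0.40 for mt-Co3, 0.66 and 0.96 for mt-Nd3, 0.0124 and 0.31 for mt-Nd4, 0.26 and 0.56 for mt-Nd5, and 0.48 and 0.78 for mt-Cytb. The cause was not tested. From spermatogonia to early spermatocytes TMM factors gave 6 rising and 0 falling, with mt-Atp6 at 0.0374, mt-Co3 at 0.13 and mt-Nd5 at 0.17. With no replicate block (library term dropped) 0 fell there, and with doublets kept or DESeq2 1 fell. Leaving out 1 library gave 3 to 5 rising, the 5 without the knockout library, and 1 to 2 falling, the 1 without either wildtype replicate, and mt-Nd1 ran from -0.0389 and -0.0318, without wildtype replicates 1 and 2, to 0.0908. With TMM factors 26 nuclear genes fell into late and 23 rose into elongating spermatids.

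The wildtype share in early spermatocytes was 5.94% as a mean over barcodes and 4.19% with all barcodes clustered together. In late spermatocytes it was 1.58% without barcodes over 10%, 6.39% as a mean over barcodes, 2.17% with low-UMI clusters named and 1.41% at resolution 2. In round spermatids the same settings gave 0.363%, 0.521%, 0.557% and 0.227%, and it was 0.389% with doublets kept, 0.367% from 2000 UMIs, 0.398% clustered together and 0.304% with equal cluster weights, a setting chosen after seeing the data. In elongating spermatids it was 0.172% with doublets kept, 0.180% as a mean over barcodes and 0.159% with low-UMI clusters named. The knockout log2 ratio in round spermatids was -0.59 without barcodes over 10%, -0.67 with doublets kept, -0.61 as a mean over barcodes, -0.35 with low-UMI clusters named, -0.59 clustered together, -0.44 at resolution 2 and -0.39 with equal weights. In late spermatocytes it was -0.32 clustered together. Against single wildtype libraries it ran from -0.25 to 0.02 in late and from -0.16 to 0.10 in elongating spermatids. The causes of these shifts were not tested. A 1.5-fold size rule gave 5 members in round spermatids, where 1.61% of all genes met it in that direction. Limits of 5% and 20% put 21.7% and 4.19%, 22.5% and 3.22%, and 16.2% and 2.26% of barcodes over them in wildtype replicates 1 and 2 and the knockout library. No paired analysis was possible because, between genotypes, the knockout is 1 pooled library.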
